A study of Caenorhabditis elegans with 2 samples.

Results

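MicroRNA genes were examined as possible neighbours of CHD-7, the worm counterpart of the vertebrate chromatin-remodelling ATPase CHD7. All 261 genes that the Ensembl WBcel235 annotation classes as miRNA were taken, out of 46926 annotated genes, with no use of any measured value. For each gene, the summits of CHD-7 peaks were counted in a window around the annotated 5′ end that reached 1000 bp upstream and 200 bp into or past the gene. A reproducible summit, meaning one in the list that the authors derived from both replicates and their pool, lay in this window at 23 genes. Not every peak of that list was met by an entry in the lists of both replicates. Those 23 genes rested on 21 distinct peaks of the 1884 in the list, because clustered microRNA genes share a summit and some genes have more than 1.

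CHD-7 was mapped by chromatin immunoprecipitation and sequencing in whole Caenorhabditis elegans of strain OP609, with an anti-GFP antibody and sonicated chromatin. The strain carries unc-119(tm4063) III and the integrated transgene wgIs609, which makes CHD-7 with a C-terminal tag of GFP and FLAG. Worms of mixed sex were grown from starved, synchronised L1 larvae and collected as young adults after 67 hours. The data are 2 biological replicates of this 1 group, so there is no second condition or untagged strain to compare with, and the control alignment that the authors used is not analysed here. All tissues are mixed in a whole worm, so a peak does not say in which cells CHD-7 was present. Read counts are not part of the files, which leaves the depth of each replicate unknown. The strength of a peak is given by the authors' signal value and by its rank in a list, where rank 1 is the highest signal.

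MicroRNAs are short RNAs cut from a hairpin, first by Drosha in the nucleus and then by Dicer in the cytoplasm, and loaded into Argonaute proteins. They pair with messenger RNAs mainly through the seed, bases 2 to 8 of the mature strand, so genes with the same seed form a family with overlapping targets. The annotated 5′ end of a C. elegans microRNA gene is usually the start of the hairpin and not the start of the longer primary transcript, which may lie farther upstream or may be the transcript of a host gene. The annotation of let-7 differs, since it spans the primary transcript.

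The family with a peak at every member was that of mir-51, whose genes are broadly expressed and act together in embryonic development. Its mature sequences are shown because the seed, here in capitals, defines the family. Each is read 5′ to 3′ from the RefSeq annotation of WBcel235, the sequence also called ce11.
mir-51: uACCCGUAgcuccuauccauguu
mir-52: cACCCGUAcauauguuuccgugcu
mir-53: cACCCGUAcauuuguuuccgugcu
mir-54: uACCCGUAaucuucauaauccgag
mir-55: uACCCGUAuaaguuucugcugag
mir-56: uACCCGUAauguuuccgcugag
The seed ACCCGUA sits on the 5′ arm of the hairpin in mir-51, mir-52 and mir-53 and on the 3′ arm in mir-54, mir-55 and mir-56. The mature strands of mir-52 and mir-53 differ only by A12U, counted from 1 at the 5′ end with the base of mir-52 first. These genes lie at separate places, mir-51 and mir-53 together on chromosome IV, mir-52 elsewhere on IV, and mir-54 to mir-56 on X.

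The second family with peaks at most members has the seed AUGACAC, again in capitals, and 4 of its 5 genes lie in a single cluster on chromosome III. The mature strands of 4 of the 5 genes are shown.
mir-229: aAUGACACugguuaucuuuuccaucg
mir-64: uAUGACACugaagcguuaccgaa
mir-66: cAUGACACugauuagggauguga
mir-63: uAUGACACugaagcgaguuggaaa
The gene outside the cluster, mir-63, lies apart on X and had neither a reproducible nor a pooled candidate summit.

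Reproducible summits lay at 8.81% of microRNA genes, against 3.99% of all annotated genes and 4.17% of protein-coding genes. The share over all genes is lowered by 15363 piRNA genes, of which 0.43% had a summit. Some non-coding classes reached higher shares, with 41.3% of 634 tRNA genes, 27.5% of 346 snoRNA genes and 16.3% of 129 snRNA genes, while the general class ncRNA had 6.98%, lincRNA genes 6.19%, antisense RNA genes 3% and rRNA genes 0%. The pooled list of 30000 candidates, which includes background by the authors' design, placed a summit at 109 microRNA genes, 41.8%, against 24.2% of all genes and 30.8% of protein-coding genes. Among genes with such a candidate, 23 of 109 microRNA genes, 21.1%, also held a reproducible summit, against 16.5% of all genes. The remaining 152 microRNA genes had no candidate at all. These shares are descriptions of a single experiment, since genes are not replicates and neighbouring genes can share a summit.

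**Figure D1:**
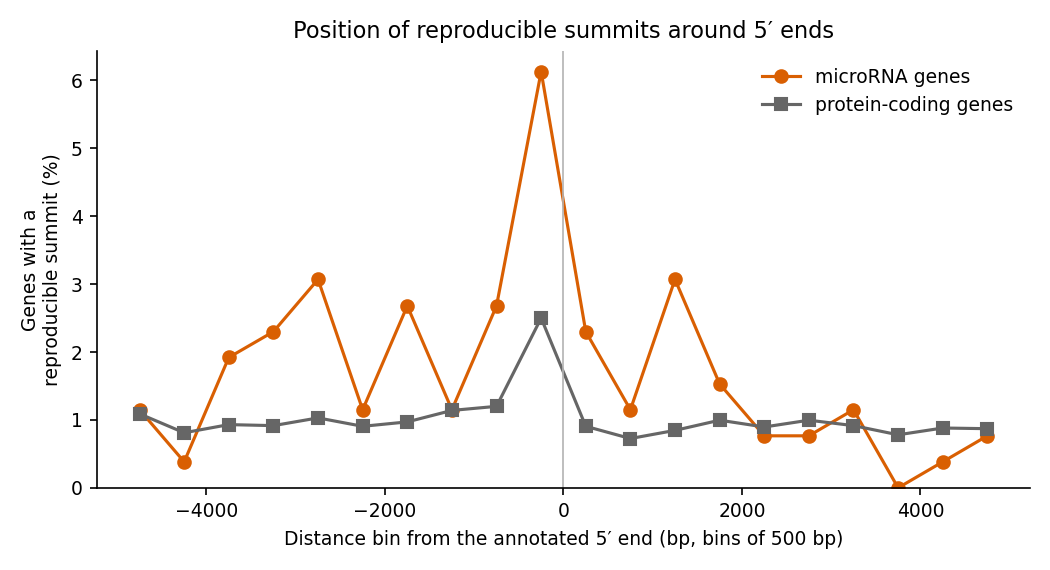
Share of genes with a reproducible CHD-7 summit, in percent, in 500 bp bins of distance from the annotated 5′ end, for 261 microRNA genes (circles) and 19985 protein-coding genes (squares). Negative distances are upstream. The highest microRNA point, 6.13%, is the bin just upstream of the 5′ end, where protein-coding genes also have their highest share, 2.5%.

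The bin with most summits was just upstream of the hairpin. In the 500 bp just before the 5′ end, 16 microRNA genes had a reproducible summit, 6.13% against 2.5% of protein-coding genes, as the profile of summits by distance shows. From 1000 to 500 bp upstream the shares were 2.68% and 1.2%, and in the first 500 bp downstream they were 2.3% and 0.906%. Away from the 5′ end, microRNA bins varied between 0% and 3.07% on 8 genes or fewer, so single outlying bins carry little. Protein-coding bins there varied between 0.726% and 1.14%. The microRNA share was the higher in most of these bins, though not all, so a higher share was not limited to the 5′ end. Within the window, which reaches farther upstream than downstream, 25 of 26 pairs of a gene and a summit had the summit upstream, and the median distance was 328 bp. The exception was mir-5549, with a summit 2 bp inside the gene.

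Peaks in microRNA windows reached the upper part of the list but not its top. Their signal ran from 166 to 537 with a median of 248, in a list that ran from 166 to 5232 with a median of 216. The higher-ranked 942 peaks of the list held 12 of the 21. In replicate 1, 16 of the 21 were met by an entry among its 1884 top-ranked ones, 76.2% beside 77.2% of all reproducible peaks. In replicate 2 the count was 19, 90.5% beside 77.1%, and 14 peaks were within that range in both replicates. Replicate 2 therefore placed these peaks high somewhat more often than replicate 1.

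**Figure D2:**
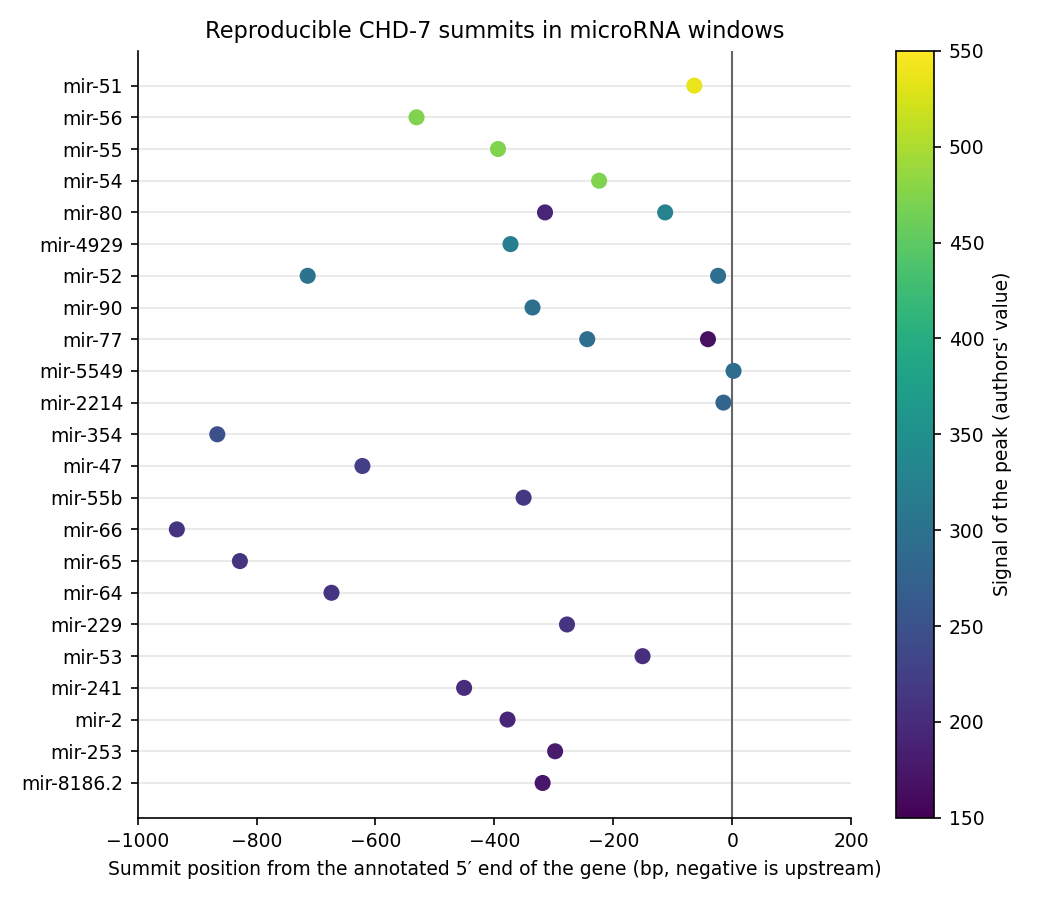
Position of every reproducible summit in a microRNA window, in bp from the annotated 5′ end (negative is upstream), 1 line for each of the 23 genes, with the authors' signal as colour. Genes are ordered by their highest signal, from 537 at mir-51 down to 174 at mir-8186.2, and all points but that of mir-5549 lie upstream.

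The strongest microRNA peak lay at mir-51 (IV 11026013 to 11026112, minus strand). The peak at IV 11026028 to 11026309 had its summit 64 bp upstream of the hairpin, a signal of 537 and rank 86 of 1884. It ranked 36 in replicate 1 and 346 in replicate 2, high in both. Its summit also fell inside the non-coding RNA gene F36H1.17, 43 bp from that gene's 5′ end, so either gene could be named for it. No protein-coding window held it, and the nearest protein-coding genes on the map are hrg-5 and alh-3, an aldehyde dehydrogenase. Farther upstream on the same strand, mir-53 (IV 11027593 to 11027691) had its own, weaker peak at IV 11027647 to 11028036, with the summit 151 bp upstream, a signal of 204 and ranks of 1379 and 1054 in replicates 1 and 2. No gene other than mir-53 had that summit in its window.

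The gene mir-52 (IV 14034008 to 14034107, plus strand) had 2 reproducible summits. The nearer one, at IV 14033748 to 14034131, was 24 bp upstream with a signal of 293, and ranked 1119 in replicate 1 and 202 in replicate 2. The farther one, at IV 14033177 to 14033409, was 714 bp upstream with a signal of 302, and here the replicates were far apart. It ranked 299 in replicate 2, but the highest entry of replicate 1 that met it ranked 29679 of 30000. The farther peak thus rests almost wholly on replicate 2, while the nearer one stands in both. Non-coding RNA genes of the locus Y37A1B cover this stretch. The farther summit lay in the windows of 5 of these genes, Y37A1B.336 among them, and of the piRNA gene 21ur-7825. The nearer summit lay in a non-coding exon and also in the windows of 5 of these genes, Y37A1B.336 again included. It was 106 to 987 bp from their 5′ ends, beside 24 bp from that of mir-52. Neither summit was therefore in the window of mir-52 alone.

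On X, the genes mir-54, mir-55 and mir-56 follow each other on the minus strand and shared a single strong summit. The peak at X 13145150 to 13145415 had a signal of 473 and rank 131, and ranked 230 in replicate 1 and 75 in replicate 2. Its summit was 224 bp upstream of mir-54, 394 bp upstream of mir-55 and 531 bp upstream of mir-56, and 47 bp upstream of the non-coding RNA gene F09A5.11. The cluster lies in an intron of F09A5.3, which runs on the other strand. On that strand, mir-55b (X 13144830 to 13144919), whose hairpin overlaps mir-55 in antisense, had a peak of its own at X 13144419 to 13144529. This peak was 351 bp upstream of mir-55b with a signal of 213. The entries that overlapped it ranked 509 in replicate 1 and 2845 in replicate 2, and both had their own summits outside it. Reproducible peaks therefore flanked the cluster on both sides.

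**Figure D3:**
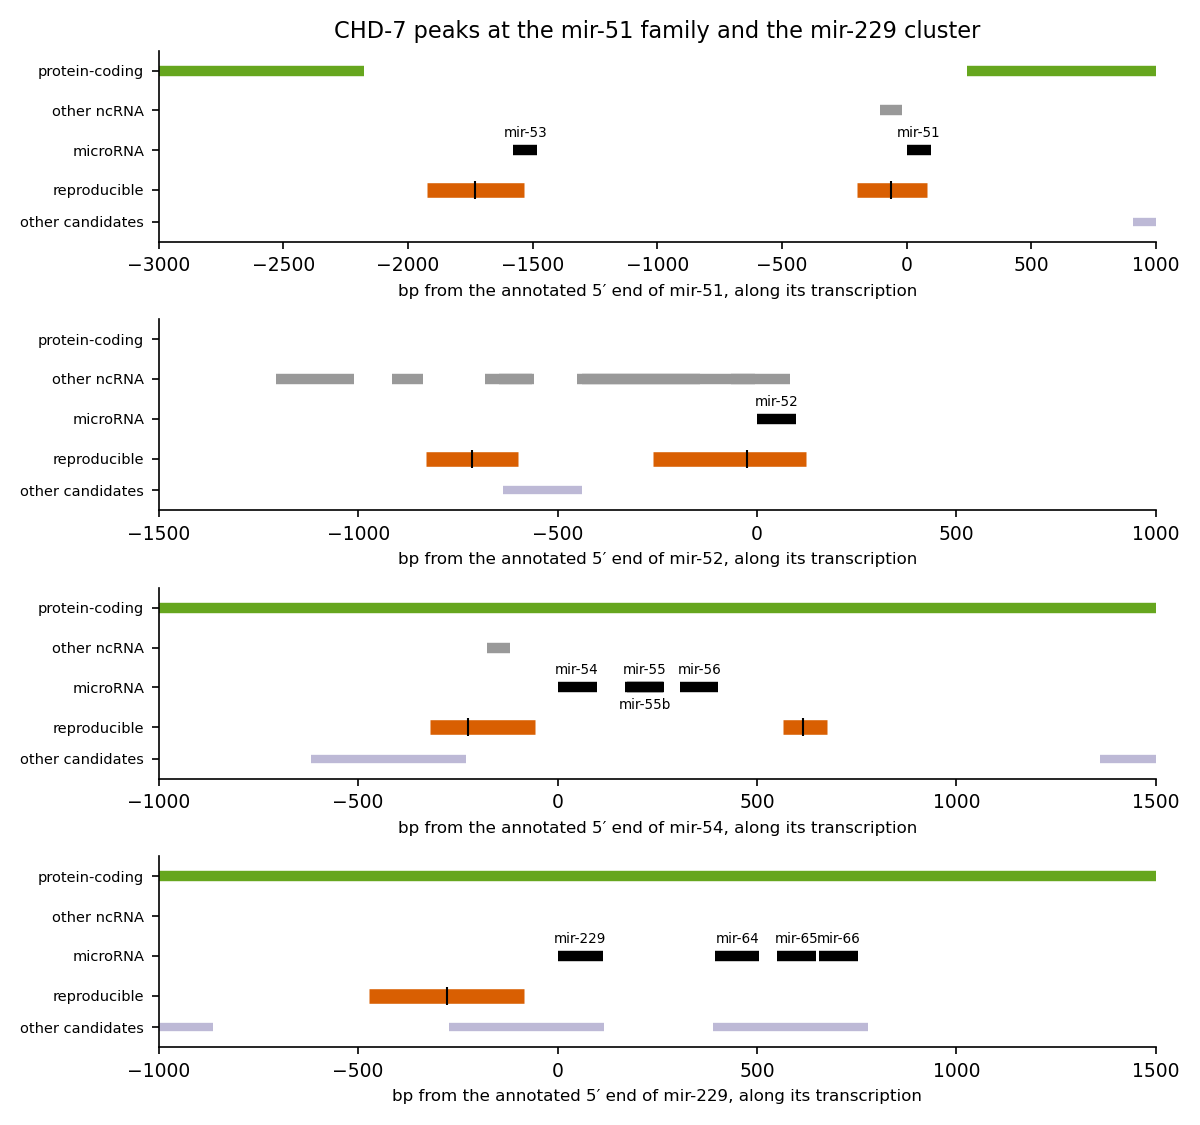
Maps of the mir-51 and mir-53, mir-52, mir-54 to mir-56 and mir-229 loci, with distance in bp from the annotated 5′ end of the lead microRNA along its transcription. Bars show protein-coding genes, other non-coding RNA genes, microRNA hairpins, reproducible CHD-7 peaks (a tick marks the summit) and other pooled candidates, and a reproducible summit stands upstream of the lead gene in each panel, at 64, 24, 224 and 278 bp.

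The sequence at these summits is shown for the mir-51 family since its members share a mature seed while lying apart. Each stretch is the 151 bp centred on a summit, on the strand of the microRNA, from ce11. The longest run common to the summit windows of mir-53 and the farther mir-52 peak is 12 bases, in capitals below.
mir-53 (IV:11027767-11027917, minus strand): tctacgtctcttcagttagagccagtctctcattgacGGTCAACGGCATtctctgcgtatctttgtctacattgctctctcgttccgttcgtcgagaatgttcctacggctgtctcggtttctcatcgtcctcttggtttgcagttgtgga
mir-52, farther peak (IV:14033219-14033369, plus strand): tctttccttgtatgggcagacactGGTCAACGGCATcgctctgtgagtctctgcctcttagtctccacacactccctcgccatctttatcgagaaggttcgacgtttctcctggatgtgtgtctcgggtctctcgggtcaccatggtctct
The run GGTCAACGGCAT was found, on either strand, in the windows of these 2 of the 1884 reproducible peaks and in 0 of 28116 other candidates. It was the longest of the runs shared by the 10 pairs of windows in this family, the others being 6 to 9 bases long. The run was singled out after it was seen in these 2 windows, so its presence there was fixed in advance. How often other runs of 12 bases recur was not tested, so the counts do not mark it as an element of the family. In the window of mir-51, the capitals mark the full B box of tRNA genes (GGTTCGA, any 2 bases, CC), an internal promoter element of RNA polymerase III genes.
mir-51 (IV:11026101-11026251, minus strand): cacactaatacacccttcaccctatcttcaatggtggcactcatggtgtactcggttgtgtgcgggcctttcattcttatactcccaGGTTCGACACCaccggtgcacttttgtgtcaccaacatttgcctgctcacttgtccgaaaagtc
That full element stood in 1 of the 21 microRNA peaks, 4.76%, beside 6.16% of all reproducible peaks and 0.615% of other candidates. No annotated tRNA gene lies within 100 bp of any of the 21 summits. A match is only a match of letters, and polymerase occupancy was not measured here.

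The mir-229 cluster on chromosome III (mir-229, mir-64, mir-65 and mir-66) also rested on a single peak. It lay at III 2171979 to 2172368 in an intron of gcn-1, the same-strand host gene, which encodes an activator of the translation-regulating kinase GCN2. The summit was 278 bp upstream of mir-229, the first hairpin, and 674, 828 and 934 bp upstream of mir-64, mir-65 and mir-66. Its signal was 212, rank 997, with rank 1700 in replicate 1 and 837 in replicate 2, so it was a peak of middle strength in both. No other gene of any class had this summit in its window. The stretch under it is rich in GAGAGA, in capitals on either strand.
mir-229 cluster (III:2172099-2172249, plus strand): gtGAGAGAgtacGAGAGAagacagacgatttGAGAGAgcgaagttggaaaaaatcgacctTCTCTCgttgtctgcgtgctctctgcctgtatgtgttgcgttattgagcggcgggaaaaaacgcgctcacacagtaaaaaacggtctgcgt

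The word GAGAGA, on either strand, stood in the 151 bp windows of 11 of the 21 microRNA peaks, 52.4%, beside 30.3% of all reproducible peaks and 13% of other candidates. It was present at mir-53, the farther mir-52 peak, mir-54 to mir-56, the mir-229 cluster, mir-90, mir-241, mir-253, mir-4929, mir-5549, mir-8186.2 and the nearer mir-80 peak. It was 1 of 17 words looked at, and 10 of the 17 were held by a larger share of the microRNA peaks than of all reproducible peaks, so the comparison is weak. The shorter word GAGAG, of which GAGAGA is an extension, gave 66.7%, 50% and 28.1%. The start of the B box, GGTTCGA, gave 14.3%, 7.75% and 1.77%, with the overlapping GTTCGAA at 4.76%, 3.34% and 2.1%. TATAAA gave 19%, 7.06% and 7.84%. CACACAC gave 14.3%, 9.45% and 3.64%, and GAAGAGA gave 14.3%, 10.4% and 5.5%. GCGCG gave 28.6%, 23.9% and 10.6%, its extension GCGCGC gave 9.52%, 7.7% and 2.17%, and the overlapping GGCGCG gave 19%, 9.45% and 4.09%. Words not held more often by microRNA peaks were CACGTG (4.76%, beside 9.87% and 4.92%), TTTCAG (4.76%, beside 11.3% and 21.1%), TGACTCA (0%, beside 1.01% and 1.5%) and GATAA (23.8%, beside 23.8% and 25.4%). The overlapping CTGCGTCTC (4.76%, beside 8.12% and 1.65%), GACGCAG (9.52%, beside 10.9% and 2.78%) and TGCGTC (9.52%, beside 15.3% and 5.84%) belong with them. Median GC content of the windows was 49.7% at microRNA peaks, 47.7% at all reproducible peaks and 43% at other candidates, and its part in these shares was not tested.

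**Figure D4:**
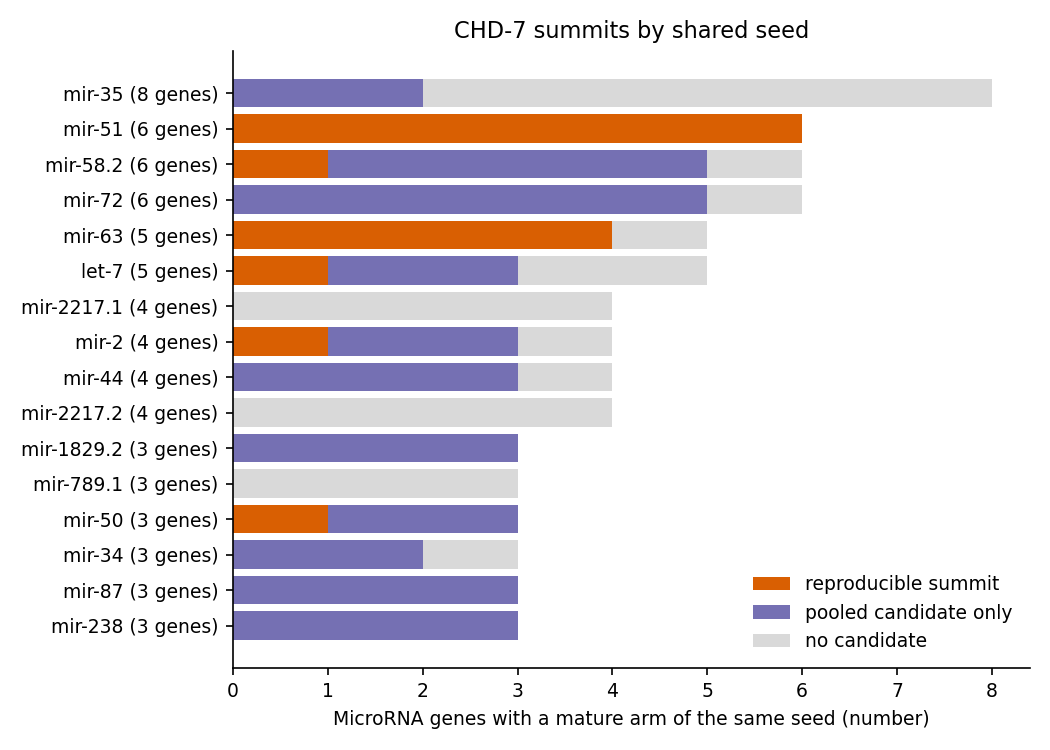
Number of microRNA genes that share a seed, for the 16 seeds shared by at least 3 genes, each named by 1 gene of the group. Colours split the genes into those with a reproducible CHD-7 summit, those with a pooled candidate only and those with neither. The mir-51 bar is wholly reproducible (6 of 6), the group labelled mir-63 has 4 of 5, and the mir-35 bar has none (0 of 8).

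Seeds shared by at least 3 genes differed in how many of their genes had a reproducible summit. Many peaks, such as those at mir-77, mir-4929, mir-55b and mir-47, lay at genes outside these seeds. A mature sequence was read from RefSeq for 260 of the 261 genes, and 16 seeds were shared by at least 3 genes. In 1 of the 16, ACCCGUA, every gene had a reproducible summit, in 6 at least 1 gene had one, and in 10 none had. The bars by shared seed show that the bantam-like seed GAGAUCA had a summit at 1 of 6 genes, mir-80, with pooled candidates at 5. The let-7 seed GAGGUAG had 1 of 5, mir-241, with candidates at 3. The seeds AUCACAG of mir-2 and GAUAUGU of mir-90 had 1 of 4 and 1 of 3. The embryonic mir-35 family, seed CACCGGG, had 0 of 8 with candidates at 2, and the seed GGCAAGA of mir-72 had 0 of 6 with candidates at 5. Over a list of 69 family and well-studied genes, 14 had a reproducible summit, 20.3%, against 9 of the other 192 microRNA genes, 4.69%, which is close to the 4.17% of protein-coding genes. Of these 14, 10 belong to the mir-51 and mir-229 groups described above and rest on 6 peaks. The list was drawn up with earlier results of these data known, so the contrast is not independent of them.

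Members of other families had peaks of their own. Mature strands of some of the genes with reproducible summits on III, V and X are shown with seeds in capitals.
mir-80: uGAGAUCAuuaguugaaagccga
mir-90: uGAUAUGUuguuugaaugccccu
mir-241: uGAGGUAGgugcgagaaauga
mir-47: uGUCAUGGaggcgcucucuuca
At mir-80 (III 8865270 to 8865367, minus strand), 2 reproducible peaks overlapped. One, at III 8865406 to 8865503, was 113 bp upstream with a signal of 327, and the other, at III 8865487 to 8865876, was 315 bp upstream with a signal of 191. The same entries met both in each replicate, at ranks 262 and 406, so the replicate lists do not separate them. Farther along the chromosome, mir-90 (III 8873987 to 8874084), in an intron of its same-strand host K01F9.2, had a peak at III 8874225 to 8874614, 336 bp upstream, with a signal of 294 and ranks of 326 and 627. No other gene shared the summits of mir-80 or mir-90.

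In the let-7 family, whose members time the larval stages, mir-241 had the only reproducible summit. It lay 451 bp upstream at V 14366539 to 14366928, with a signal of 203, and inside the non-coding RNA gene F56A12.8. Its ranks were 2197 in replicate 1 and 929 in replicate 2. Downstream on the same strand, mir-48 had no reproducible summit but 2 candidates, the higher 196 bp upstream at V 14364510 to 14364899, with pooled rank 2277 and ranks of 4259 and 1678. The gene let-7 itself had no candidate in the window, and the nearest reproducible summit was 8386 bp upstream of its annotated 5′ end, in the window of sucl-1, a succinyl-CoA ligase subunit. The gene mir-47, which lies outside protein-coding genes on X, had a peak at X 13920433 to 13920822, 622 bp upstream, with a signal of 223 and no other gene in reach. It ranked 463 in replicate 2 but 2807 in replicate 1.

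Neighbours of other classes shared 13 of the 21 summits, 6 of them protein-coding windows, while 8 summits lay in microRNA windows alone. The summits at mir-354 and mir-5549 were among the 6 in protein-coding windows. The peak at mir-354 (I 14469162 to 14469551, signal 248) was 866 bp upstream of the hairpin but 254 bp upstream of its host rps-20, a ribosomal protein of the small subunit, and 143 bp upstream of ekl-4. It ranked 432 in replicate 2 and was met by no entry of replicate 1. The peak at mir-5549 (III 6971933 to 6972255, signal 291, ranks 1236 and 207) was 371 bp upstream of the elongation factor gene eef-1A.1 and 170 bp upstream of rfc-4, a subunit of the clamp loader of DNA replication. At mir-77, both summits (II 12518829 to 12519218, signal 293, and II 12519032 to 12519421, signal 166) lay within 100 bp of the snoRNA gene T21B4.20, and in the windows of the chemoreceptor gene srh-70 and the homeobox gene ceh-99. They were met by the same entries, ranked 803 and 297. These 2 of 21 summits were the only ones that close to a gene for tRNA, rRNA, snRNA or snoRNA, 9.52% beside 16.5% of all reproducible peaks.

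The remaining peaks were weaker or lay in host genes. The peak at mir-4929 (II 13462042 to 13462431) was 373 bp upstream, in an intron of its host E01G4.3, with a signal of 320 and ranks of 337 and 479. The peak at mir-2214 (III 7278505 to 7278894, signal 277, ranks 1397 and 372) was 15 bp upstream, in an intron of the host B0361.11, and shared with the non-coding RNA gene B0361.13. The peak at mir-2 (I 9373048 to 9373437, signal 193, ranks 1730 and 826) was 378 bp upstream, in an intron of ppfr-1, which encodes a regulatory subunit of protein phosphatase 4, and shared with F16A11.5. The peak at mir-253 (V 5780719 to 5781108, signal 179) was 298 bp upstream but 8 bp from the 5′ end of its host F44E7.5. It was also shared with the non-coding RNA gene F44E7.13, and ranked 1196 in replicate 1 and 3419 in replicate 2. The lowest-ranked of these was at mir-8186.2 (II 18821 to 19210, signal 174, ranks 3380 and 1696), 319 bp upstream and 522 bp upstream of gmeb-1. Host promoters added little, since only mir-253, mir-354 and mir-2216 have a same-strand host with a reproducible summit in its own window, and mir-2216, hosted by the GMP synthetase gene gmps-1, has none in its own.

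**Figure D5:**
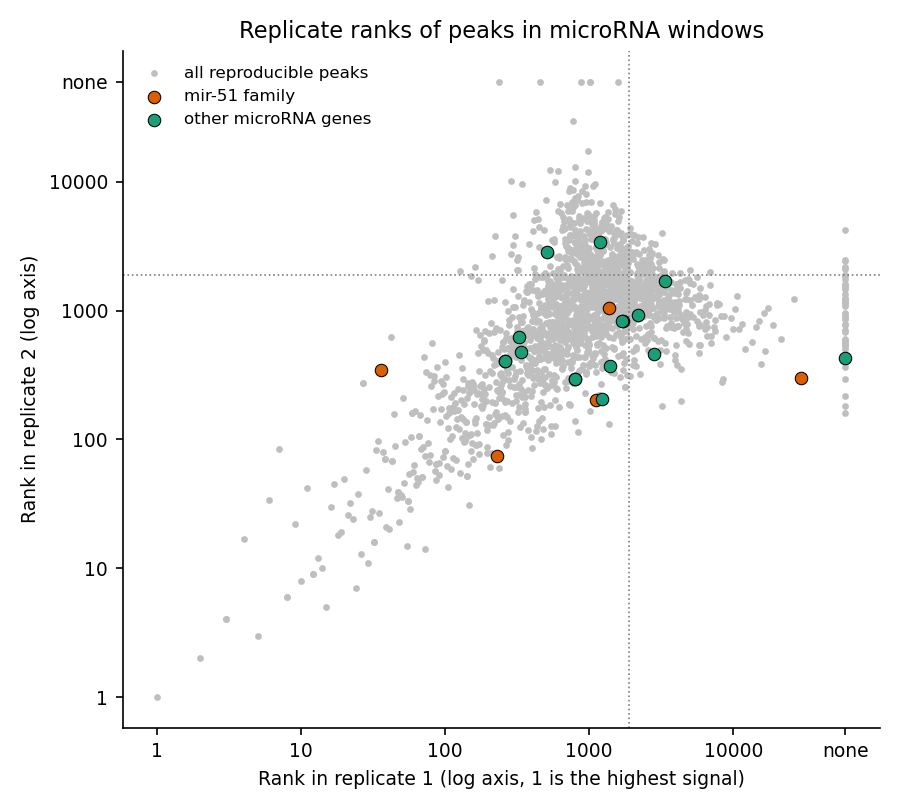
Rank of each reproducible peak in replicate 1 (x) and replicate 2 (y), both on log axes where 1 is the highest signal and "none" means that no entry overlapped. Grey points are all 1884 reproducible peaks, larger points those in microRNA windows, and dotted lines mark rank 1884. Of the 21, 14 lie on the low side of both lines, and the mir-52 peak at rank 29679 of replicate 1 and the mir-354 peak, met by no entry of replicate 1, stand at the right.

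The plot of replicate ranks shows how far the replicates agreed on each peak. The peaks at mir-51, mir-54 to mir-56, mir-80 and mir-4929 ranked among the 500 highest in both. The peaks at mir-47, mir-241, mir-354, mir-8186.2 and the farther mir-52 site lay within the 1884 highest of replicate 2 but not of replicate 1, and those at mir-253 and mir-55b showed the opposite.

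The share of genes with a peak varied with their position, given here as counts without a test. Of 74 genes inside a host gene on the same strand, 11 had a reproducible summit, 14.9%, against 3 of 32 in a host on the other strand, 9.38%, and 9 of 155 outside protein-coding genes, 5.81%. Pooled candidates gave the same order, at 62.2%, 37.5% and 32.9%. The 3 in opposite-strand hosts were mir-54, mir-55 and mir-56 with their shared peak, and 4 of the 11 in same-strand hosts were the mir-229 cluster. Of 61 genes with another microRNA gene within 2000 bp on the same strand, 11 had a summit, 18%, against 12 of 200 without, 6%, but 7 of those 11 rest on the 2 peaks just named. By chromosome, III had 8 of 27, 29.6%, where 5.72% of protein-coding genes had one, but 4 of those 8 are the mir-229 cluster with its single peak. The other chromosomes ranged from 6% on IV to 7.14% on V, where 3.78% and 2.9% of protein-coding genes had one. The shares were 6.06% beside 4.69% on I, 6.12% beside 4.26% on II and 6.76% beside 4.83% on X. Genes whose name carries a number under 1000, which were mostly described earlier, carried one at 19 of 138, 13.8%, while 4 of 123 with higher numbers did, 3.25%, a division made after the values were seen.

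Several well-known microRNAs fell just short of the reproducible list or had no peak nearby. The nearest miss was mir-71, a regulator of lifespan, whose higher candidate, 265 bp upstream (I 9380090 to 9380479), had pooled rank 1892, 8 ranks past the end of the list, with a signal of 165.51 against 165.74 at the end. It ranked 1438 in replicate 1 and 2865 in replicate 2. A strong reproducible peak stood 1483 bp upstream of mir-71, at I 9381231 to 9381815 in an intron of ppfr-1, with a signal of 546 and ranks of 100 and 81, outside the window. Its summit lay in the windows of the non-coding RNA gene F16A11.13 and the antisense RNA gene anr-20. Next came mir-41 of the mir-35 family (pooled rank 2156), mir-48 (2277), mir-5595 (2459) and the neighbours mir-86 and mir-8211 (2575, a shared candidate). The founding microRNA lin-4 had a candidate 357 bp upstream with pooled rank 3077, and its nearest reproducible summit was 31164 bp away. The muscle gene mir-1, the neuronal lsy-6 and mir-35 had no candidate in the window, and their nearest reproducible summits were 8439, 34100 and 2589 bp away, that of mir-1 in the window of a tRNA gene. The abundant mir-58.1 had 2 candidates, and its nearest reproducible summit was 5450 bp away. The gene mir-244 lies 1451 bp from chd-7, the gene carried by the transgene, and had no candidate.

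Genes listed for microRNA making, effector complexes and turnover, and for targets in developmental timing, were counted in the same window. This pathway list was drawn up with earlier results of these data known. Of 37 listed symbols, 35 matched the annotation, and 7 of these had a reproducible summit, 20% against 4.17% of protein-coding genes, while 19 had a pooled candidate, 54.3% against 30.8%. The strongest were in the effector complex, nhl-2, a TRIM-NHL cofactor of silencing (III 4899738 to 4900095, 854 bp upstream, signal 1087, ranks 10 and 8), and ain-1, the GW182 protein that binds Argonaute (X 16612309 to 16612701, 904 bp upstream, signal 717, ranks 46 and 35). The nhl-2 summit was shared with tag-340 and the non-coding RNA gene F26F4.14, whereas no other gene shared that of ain-1. Also in effector complexes, vig-1 had a summit 417 bp upstream (II 1320425 to 1320814, signal 412), and the DEAD-box helicase gene cgh-1 one 734 bp upstream (III 7498371 to 7498760, signal 259). The exonuclease gene xrn-2, which acts in turnover of mature microRNAs, had a summit 81 bp downstream of its 5′ end in coding sequence (II 14155654 to 14156043, signal 333, ranks 364 and 369). The summit of pqn-59 was shared with taf-4 (I 382443 to 382832, signal 200). Among targets, lin-14, repressed by lin-4, had a weak peak 139 bp upstream (X 11465226 to 11465615, signal 167, rank 1841) that ranked 6604 in replicate 1 and 630 in replicate 2 and was shared with the non-coding RNA gene T25C12.8. The processing genes dcr-1 and pash-1 had no candidate, drsh-1 had candidates up to pooled rank 2223, and the Argonaute genes alg-1 and alg-2 had candidates at pooled ranks 25745 and 14006. When the window was cut to 500 bp on the upstream side and 100 bp on the other, 3 of the 35 had a summit, 8.57% against 2.85% of protein-coding genes, namely vig-1, xrn-2 and lin-14.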

How the data were processed

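Peak lists of 2 biological replicates, their pool and the reproducible set were used on the ce11 build, in the narrowPeak layout. The deposited signal column is the peak caller's value per peak, from which ranks were taken. A deposited −log10 q column, capped at 3.43, was left aside, and the deposited summit offset (other) was added to the start. Per the file notes, the authors called each list against a control and derived the reproducible list by the irreproducible discovery rate. Aligner, caller, versions and cutoff were not given in the sources used here.

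Genes came from Ensembl release 115 for WBcel235, and 42 microRNA symbols and all mature sequences from the RefSeq annotation. A replicate's rank is that of its highest entry overlapping a peak by at least 1 bp. The summit of that entry can lie outside the peak, as at mir-55b and, in replicate 1, at mir-2. No test was made, since there is 1 group. Counts were set beside those of all and of protein-coding genes. The text names every microRNA gene with a reproducible summit, its host, and the protein-coding and small RNA genes that share the summit. It also names the 5 best candidates without such a summit, let-7, lin-4, lsy-6, mir-1, mir-35, mir-51, mir-58.1 and mir-71, and pathway genes with a summit. Other names, the words searched and the mir-51 family as a group were picked after values were seen. The members and lists were chosen with earlier results of these data known. Functions were tested on simulated data. Python 3.11.15, numpy 2.4.6 and matplotlib 3.10.9 were used. One mature sequence of the mir-229 cluster is not reported here.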

Additional observations from a re-analysis of the deposited data

How the results depend on the processing

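No paired analysis was possible because the series holds a single group. The count of 23 microRNA genes, 8.81%, was 13 in the higher-ranked 942 peaks, 4.98% against 2.37% of protein-coding genes. It was 10, 3.83%, without summits in windows of other gene classes. When only summits within 100 bp of the hairpin counted it was 5, 1.92%. No share of protein-coding genes was taken for these last 2 settings. The count was 17 and 32 in the narrower and wider windows, 6.51% and 12.3% against 2.85% and 6.16% of protein-coding genes. Whole intervals gave 26, 9.96% against 4.67%. The 1884 highest-ranked pooled candidates, taken in place of the reproducible list, gave the same 23 genes, 8.81% against 4.17%. Leaving out summits at small RNA genes gave 22, 8.43% against 3.76%. With host promoters the count was 24, again with no such share taken. The 1884 highest peaks of replicate 1 alone gave 22, 8.43% against 3.72%. Those of replicate 2 alone gave 23, 8.81% against 4.58%. Without replicate 2, mir-354, mir-8186.2, mir-66, mir-241 and mir-47 dropped out and mir-71, mir-73, mir-74 and mir-84 came in. Without replicate 1, mir-253 and mir-55b dropped out and mir-48 and mir-4936 came in. The list of 69 family genes went from 14 to 9 in the narrower window, 13% against 2.85% of protein-coding genes. In the higher-ranked peaks it went to 7, 10.1% against 2.37%. With either replicate alone it was 15, 21.7% against 3.72% (replicate 1) and 4.58% (replicate 2). The pathway list went from 7 to 3 in the narrower window and stayed at a count of 7 with either replicate alone. The mir-51 family, an alternative set chosen after the values were seen, had 6 with either replicate alone and 5 in the narrower window and in the higher-ranked peaks. Pooled candidates were 112 to 118 with a single replicate. With no read counts, the depth behind any absent peak is unknown.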
